A study of Mus musculus with 18 samples.

Results

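Chromatin remodelers and histone modifiers, the genes described here, were taken by symbol from the RNA-seq count table of mouse liver. The families are Arid1 to Arid5 with Jarid2, Smarca, Smarcb, Smarcc and Smarce, Chd, Brd, Hdac, Sirt, Kat, Kdm1, Kdm2, Kdm5 and Kdm6, Setd, Kmt2 and Kmt5, Dnmt1 and Dnmt3, and Tet. The rule found 95 of the 15572 genes in the table. Of these, 92 encode proteins, Chd3os and Dnmt3aos are antisense RNAs and Smarca5-ps is a pseudogene. For each family the change in RNA in liver-specific Jmjd1c knockout mice (JMJD1C-LKO) is given first, followed by the summits of ATAC-seq and H3K9me2 ChIP-seq peaks at the gene starts.

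JMJD1C is a JmjC-domain demethylase reported to act on dimethylated lysine 9 of histone H3 (H3K9me2). JMJD1C-LKO mice carried floxed Jmjd1c alleles and Cre under the albumin promoter, which is active in hepatocytes. Which other liver cells kept the gene is not given in the sources used here. WT littermates on a C57bl/6j background served as controls, all mice had been on chow for 6 to 8 weeks, and the methods give an age of 12 weeks. RNA-seq covered refed WT and refed JMJD1C-LKO liver, with 2 libraries of pooled RNA each. ATAC-seq covered fasted WT, refed WT and refed JMJD1C-LKO liver, and H3K9me2 ChIP-seq covered fasted and refed WT liver, with 2 mice in each group and each mouse on its own. Refed mice received a high-carbohydrate, fat-free diet after a fast, for 6 h by the labels and for 8 to 16 h by the methods. Fasted and refed samples are told apart by their titles, since the treatment text of the labels is the same for all samples and describes refeeding. The study calls the samples of each sequencing experiment biological replicates, and how many mice entered a pool is not given in the sources used here.

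Most of these proteins set how tightly DNA is packed. Histone acetyltransferases (Kat) add acetyl groups that loosen nucleosome contacts and are read by bromodomain proteins (Brd), while Hdac and Sirt enzymes remove acetyl groups. Most Setd and Kmt enzymes methylate lysines, and Kdm enzymes remove methyl groups. Smarc and Chd proteins move nucleosomes with energy from ATP, Dnmt enzymes methylate DNA and Tet enzymes oxidise that mark. H3K9me2 is best known as a mark of repressed chromatin.

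The RNA-seq libraries held between 51265128 and 54400509 estimated counts. Jmjd1c itself stood at 4.35 and 4.60 TPM (a level scaled by transcript length and library size) in the WT and 3.85 and 4.12 TPM in the JMJD1C-LKO libraries. Both knockout values were below both WT values, with a log2 fold change of -0.14 ± 0.08 (SE) and an adjusted p of 0.23. Cre removes a pair of internal exons in the allele the study draws, and counts per whole transcript do not separate reads of these exons from the rest. This level therefore does not check the labels, and the directions below rest on the libraries as labelled. Hepatocyte markers were abundant, with a summed level of 7 genes of 98077 to 109361 CPM (counts scaled to library size) over the 4 libraries. All 8 Kupffer cell and macrophage markers were higher in JMJD1C-LKO, their summed level being 293 and 305 CPM in WT and 578 and 830 CPM in JMJD1C-LKO. Also higher were 6 of 7 endothelial markers (108 and 109 against 148 and 199 CPM), 5 of 6 proliferation genes (6.54 and 6.21 against 13.1 and 17.4 CPM), 2 of 8 T and B lymphocyte markers (5.30 and 4.93 against 8.82 and 11.2 CPM) and 2 of 6 stellate cell and fibroblast markers (178 and 184 against 198 and 241 CPM). Of 7 hepatocyte markers Cps1 and Tat were higher, and of 6 erythroid markers Alas2, with summed erythroid levels of 653 and 357 against 577 and 565 CPM. Of the 5 cholangiocyte markers 0 passed in edgeR or in DESeq2 and 1 was lower at an unadjusted p under 0.05, and their summed levels were 26.5 and 29.7 against 25.7 and 28.6 CPM. None of these markers was at 0 in all libraries. The part of these cells in the results on chromatin genes was not tested, and in whole liver fewer cells of a type and less RNA per cell cannot be told apart.

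Before the values, the DNA upstream of 6 genes is shown. Arid4b, Hdac2, Smarca5, Jarid2 and Kmt5a are the members that had an ATAC-seq summit at the start in both refed WT livers and were lower in JMJD1C-LKO. Setd4 had the lowest log2 fold change among the members and had no ATAC-seq summit in any liver. Each run holds the 250 bases before a transcript start in RefSeq (GRCm38.p6, the mm10 build), 5′ to 3′ on the strand of the gene, and no curated exon lies within it. Capitals mark matches on either strand to the CCAAT box (CCAAT), the GC box (GGGCGG), an ETS element (CCGGAAG) and the E-box (CACGTG), none of which overlapped another here.
Arid4b (chr13:14063534-14063783, plus strand): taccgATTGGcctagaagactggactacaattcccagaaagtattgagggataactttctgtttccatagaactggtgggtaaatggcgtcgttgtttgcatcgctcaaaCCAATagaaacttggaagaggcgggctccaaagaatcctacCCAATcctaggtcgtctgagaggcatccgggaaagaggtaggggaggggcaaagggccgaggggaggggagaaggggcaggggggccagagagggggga
Hdac2 (chr10:36974294-36974543, plus strand): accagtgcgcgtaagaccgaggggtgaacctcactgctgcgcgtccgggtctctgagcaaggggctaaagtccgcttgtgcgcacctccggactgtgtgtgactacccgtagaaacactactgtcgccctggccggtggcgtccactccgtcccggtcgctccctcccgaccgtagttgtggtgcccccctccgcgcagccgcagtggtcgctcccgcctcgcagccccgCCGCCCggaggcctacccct
Smarca5 (chr8:80739460-80739709, minus strand): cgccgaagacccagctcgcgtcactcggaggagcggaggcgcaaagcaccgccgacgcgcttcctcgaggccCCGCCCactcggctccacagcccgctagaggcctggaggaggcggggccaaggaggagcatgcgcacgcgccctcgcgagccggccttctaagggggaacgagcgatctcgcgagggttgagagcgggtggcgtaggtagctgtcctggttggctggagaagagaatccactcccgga
Jarid2 (chr13:44730524-44730773, plus strand): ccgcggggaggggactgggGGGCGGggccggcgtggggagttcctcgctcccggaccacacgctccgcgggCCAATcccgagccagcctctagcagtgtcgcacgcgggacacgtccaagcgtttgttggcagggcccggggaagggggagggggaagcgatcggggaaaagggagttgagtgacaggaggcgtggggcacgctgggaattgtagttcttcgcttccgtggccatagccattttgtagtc
Kmt5a (chr5:124439680-124439929, plus strand): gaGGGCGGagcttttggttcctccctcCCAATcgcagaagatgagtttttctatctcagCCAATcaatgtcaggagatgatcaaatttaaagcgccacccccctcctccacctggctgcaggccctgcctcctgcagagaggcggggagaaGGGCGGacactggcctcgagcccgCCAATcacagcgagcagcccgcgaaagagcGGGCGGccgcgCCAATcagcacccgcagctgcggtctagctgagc
Setd4 (chr16:93603816-93604065, minus strand): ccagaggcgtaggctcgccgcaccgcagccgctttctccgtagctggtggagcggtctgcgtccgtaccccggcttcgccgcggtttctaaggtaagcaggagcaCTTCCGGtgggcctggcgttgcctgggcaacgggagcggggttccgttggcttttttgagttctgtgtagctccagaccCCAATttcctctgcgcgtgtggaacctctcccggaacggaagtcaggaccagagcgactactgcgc

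The CCAAT box occurred 3 times in the Arid4b run, 4 times in the Kmt5a run and once each in those of Jarid2 and Setd4. Over the same 250 bases, 33.8% of 32851 RefSeq promoters held it. The GC box occurred 3 times in the Kmt5a run and once each in those of Hdac2, Smarca5 and Jarid2, and 32.7% of promoters held it. The ETS element was found at Setd4, beginning at -145 bp, and in 6.91% of promoters. The letters of the E-box, held by 6.02% of promoters, were not in these 6 windows. The GC content of the runs was 54% for Arid4b and 62 to 69.2% for the others. A match describes letters in the window and not a bound site.

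At Arid4b the summits of the 4 WT livers lay at -184, -128, -248 and -130 bp from the start, all inside the printed run. Those of Hdac2 lay at -114, -207, -148 and -118 bp in the same livers, again within the run. Smarca5 had summits at -14 and -27 bp in the fasted livers, and at 134 and -222 bp in the refed livers. At Jarid2 the refed summits lay at -196 and -147 bp, and at Kmt5a at -188 and -200 bp.

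Expression was compared between refed JMJD1C-LKO and refed WT liver to ask which genes differ without hepatocyte Jmjd1c in the fed state. All 95 members passed the filter on low counts. At an adjusted p under 0.05 (edgeR, over 14151 genes), 16 members were lower and 4 were higher in JMJD1C-LKO, or 16.8% and 4.21% of the members. Among all tested genes 13.4% were lower and 14.6% were higher. The lower members lay near the background share, and the higher members below it. Scaling by library totals alone gave 20 lower and 1 higher, where 16% and 12.1% of all tested genes were. Changes were small, only 3 of the 20 called members passing 1.5-fold (Setd4, Hdac2 and Tet2), compared with 47.1% of all called genes.

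**Figure D1:**
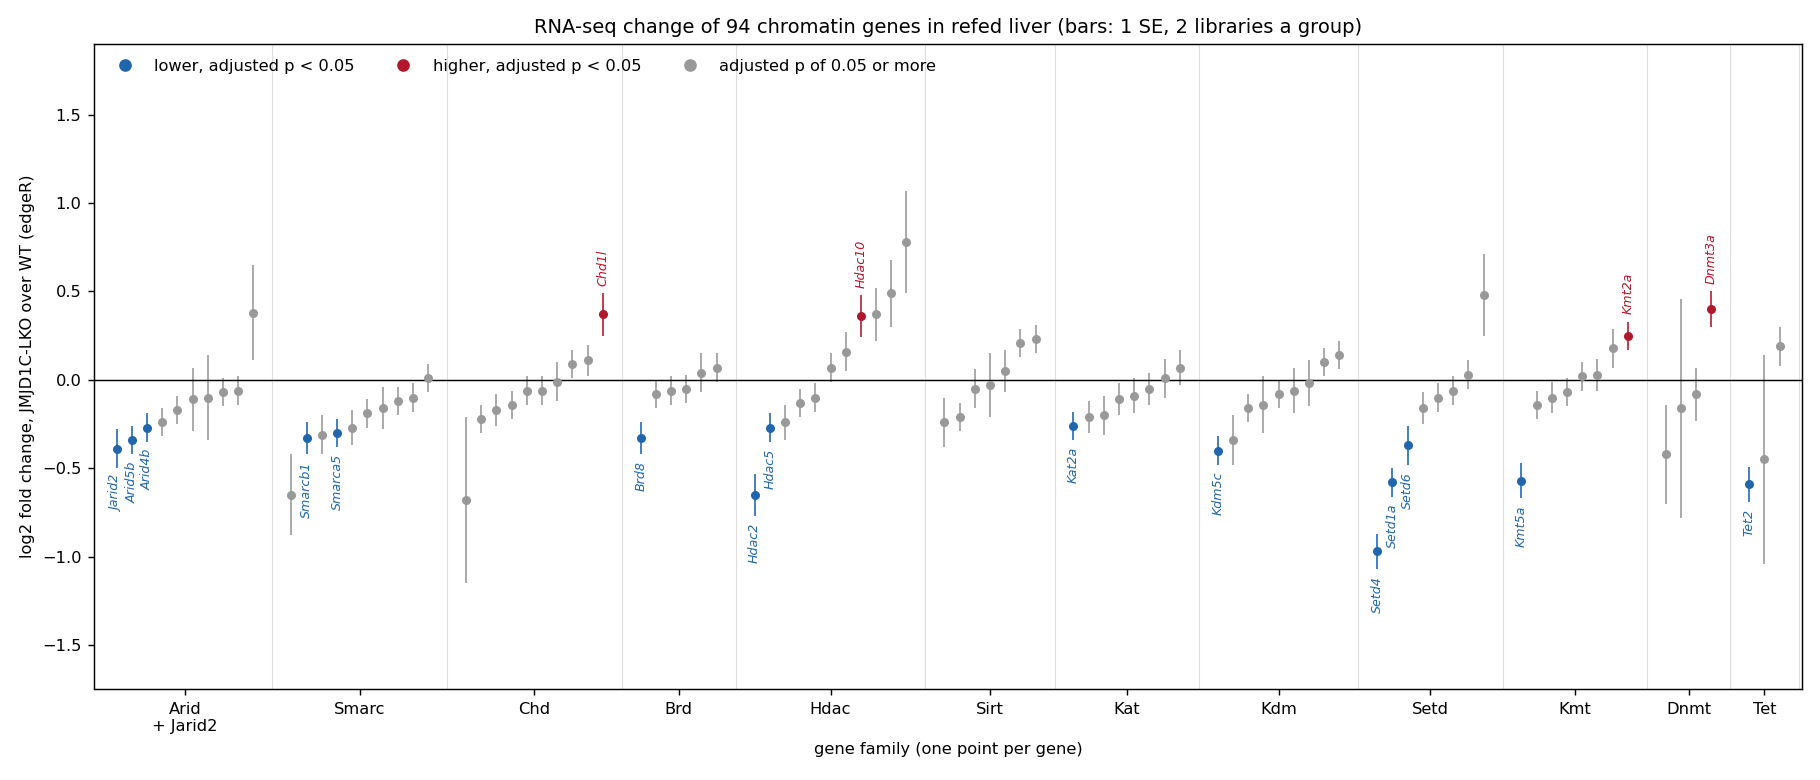
Log2 fold change of 94 of the 95 chromatin genes in refed JMJD1C-LKO over refed WT liver (y axis, edgeR; bars are 1 SE, 2 libraries a group), grouped by family on the x axis. Blue points are lower and red points higher at an adjusted p under 0.05, grey points did not pass. The 15 blue points are spread over 9 families, with 3 in Setd and 3 in Arid and Jarid2, and the red points are Dnmt3a, Chd1l, Hdac10 and Kmt2a.

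The median log2 fold change was -0.10 over the members and 0.01 over all tested genes, and 67 of the 95 members (70.5%) had a value below 0, against 49.4% of the tested genes. With library totals alone the medians were -0.13 and -0.03. In 50 members (52.6%) both JMJD1C-LKO libraries were below both WT libraries in CPM, which held for 33.8% of all tested genes. The opposite order was found in 15 members (15.8%) and in 33.7% of tested genes. Members were expressed at a median of 7.86 TPM in WT liver, and tested genes at 6.37 TPM.

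Counts of calls moved with the libraries used, for the members and for all genes alike. Without WT replicate 1, 4 members were lower and 0 higher (9 and 2 at an unadjusted p under 0.05), where 3.28% and 5.44% of all tested genes were. Without WT replicate 2, 5 were lower and 0 higher (18 and 4 unadjusted), where 2.81% and 4.55% of genes were. Without JMJD1C-LKO replicate 1 there were 23 lower and 6 higher (17.9% of genes in each direction), and without replicate 2 there were 11 and 2 (10.3% and 11.2%). Setd4, Setd1a, Kmt5a and Tet2 passed under every alternative that was run, whereas the other 16 called members lost the call at least when WT replicate 1 was left out. Their log2 fold changes without that library were 0.73 to 1.01 times those with it (median 0.859), so the p-values moved more than the sizes. The direction of all 20 was kept in every alternative that was run.

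**Figure D2:**
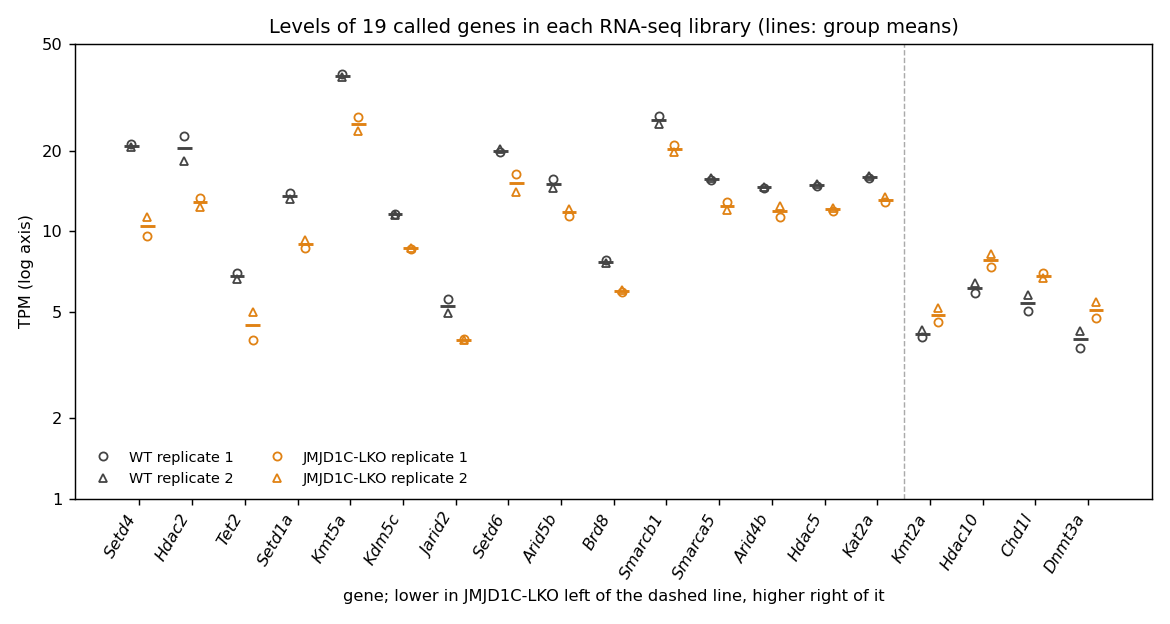
Levels in TPM (y axis, log scale) of 19 of the 20 called genes (x axis) in each of the 4 RNA-seq libraries, circles and triangles being replicates 1 and 2 and lines the group means. The JMJD1C-LKO values (orange) do not overlap those of WT (grey) at any of these 19 genes, and the gap is widest at Setd4, from 20.9 to 10.4 TPM. The genes were chosen by their adjusted p in these same libraries, which favours such gaps. In CPM, both knockout libraries were below both WT libraries at 33.8% of all tested genes and above both at 33.7%.

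Among the SET-domain methyltransferases named Setd, 3 of 8 members were lower. Setd4, a SET-domain methyltransferase (chromosome 16, 93583460 to 93603815, minus strand), was at 21.1 and 20.6 TPM in WT and 9.55 and 11.3 TPM in JMJD1C-LKO. The knockout libraries held about 0.509 times the WT level, with a log2 fold change of -0.97 ± 0.10 (SE) and an adjusted p of 0.00025. Setd1a, a catalytic subunit of a COMPASS complex that methylates lysine 4 of histone H3 (H3K4), was at 13.9 and 13.2 TPM in WT against 8.65 and 9.25 TPM (-0.58 ± 0.08, adjusted p = 0.0012). Setd6, which methylates the NF-κB subunit RelA, was at 19.7 and 20.2 against 16.3 and 14 TPM (-0.37 ± 0.11, adjusted p = 0.032). Its exons share 77 bases with Cnot1 on the opposite strand, and whether counting used the strand is not given in the sources used here. The most abundant member was Setd3, an actin histidine methyltransferase, at 59.0 and 58.4 TPM in WT and 58.3 and 59.3 TPM in JMJD1C-LKO (log2 fold change 0.03 ± 0.08). The family median was -0.13.

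The Kmt family had one member in each direction among 8. Kmt5a, which adds the first methyl group to lysine 20 of histone H4, was the most abundant, at 38.5 and 37.7 TPM in WT and 26.7 and 23.7 TPM in JMJD1C-LKO. The log2 fold change was -0.57 ± 0.10 (adjusted p = 0.0025), and the groups did not overlap. Kmt2a (MLL1), an H3K4 methyltransferase, was higher, from 4.01 and 4.27 to 4.56 and 5.15 TPM (0.25 ± 0.08, adjusted p = 0.042). Library totals alone, DESeq2 and the fit without the filter each ended the call of Kmt2a, as did leaving out either WT library or JMJD1C-LKO replicate 2, with adjusted p between 0.016 and 0.29 over the alternatives. The other H3K4 methyltransferases Kmt2b, Kmt2c and Kmt2d had log2 fold changes of -0.07, 0.02 and 0.03, and Kmt2e, which binds trimethylated H3K4, had -0.10. Kmt5b and Kmt5c, which add further methyl groups after Kmt5a, had -0.14 and 0.18, and none of these passed.

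In the Kdm family of demethylases 1 of 9 members was lower. Kdm5c, an X-linked H3K4 demethylase, was at 11.6 and 11.5 TPM in WT and 8.60 and 8.64 TPM in JMJD1C-LKO (-0.40 ± 0.08, adjusted p = 0.0053). Its replicates lay closer to each other than the groups did. Kdm2a, a CpG-binding H3K36 demethylase, was the most abundant member, at 15.4 and 15.8 against 14.6 and 14.3 TPM (-0.08 ± 0.08). Kdm6a, an X-linked H3K27 demethylase, had -0.34 ± 0.14 with an adjusted p of 0.091. The family median was -0.08.

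Of the 11 Hdac members, 2 were lower and 1 was higher. Hdac2, a class I enzyme of the NuRD, Sin3 and CoREST corepressors (chromosome 10, 36974544 to 37001888), was at 22.7 and 18.3 TPM in WT and 13.3 and 12.3 TPM in JMJD1C-LKO. Its log2 fold change was -0.65 ± 0.12 (adjusted p = 0.0046), and the WT libraries differed from each other more than the knockout libraries did. Hdac5, a class IIa enzyme that shuttles between nucleus and cytoplasm, was at 14.8 and 15.0 against 11.9 and 12.2 TPM (-0.27 ± 0.08, adjusted p = 0.031), and did not pass with DESeq2 (adjusted p = 0.072). Hdac10, a polyamine deacetylase, was higher, from 5.85 and 6.39 to 7.36 and 8.24 TPM (0.36 ± 0.12, adjusted p = 0.044), a call that ended with library totals alone and with DESeq2. The class I enzymes Hdac1 and Hdac3 had log2 fold changes of -0.24 and -0.10 and did not pass. Hdac11, the single class IV enzyme and the most abundant member, was at 38.3 and 36.6 against 39.1 and 37.9 TPM (0.07 ± 0.08). The highest value of any member was 0.78 ± 0.29 for Hdac9, which was at 0.512 and 0.340 against 0.576 and 0.786 TPM and did not pass (adjusted p = 0.075). The Hdac median of 0.07 was the highest of the 12 families.

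None of the 7 sirtuins was called by edgeR, or by DESeq2, at an adjusted p under 0.05, while 1 was lower and 2 were higher at an unadjusted p under 0.05. Sirt3, the main mitochondrial deacetylase, had the highest level of all members, at 83.4 and 81.4 TPM in WT and 88.0 and 102 TPM in JMJD1C-LKO (0.23 ± 0.08, adjusted p = 0.066). Sirt2, which is mainly cytoplasmic, had -0.21 ± 0.08 (adjusted p = 0.069), and the nucleolar Sirt7 had 0.21 ± 0.08 (adjusted p = 0.078). Sirt2 was at 79.4 and 74.9 against 64.5 and 66.7 TPM, and Sirt7 at 39.6 and 37.8 against 44.1 and 44.1 TPM, so the groups did not overlap at either gene. Exons of Sirt3 and Sirt2 share 69 and 149 bases with Ric8a and Gm19897 on the opposite strand.

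Among the 8 acetyltransferases of the Kat family, Kat2a (GCN5, of the SAGA complex) was lower. It was at 15.8 and 16.1 TPM in WT and 12.8 and 13.4 TPM in JMJD1C-LKO (-0.26 ± 0.08, adjusted p = 0.039). The call ended with DESeq2, whose adjusted p and those of the other alternatives lay between 0.028 and 0.21. Its close relative Kat2b (PCAF), the most abundant of the family, was at 20.4 and 25.9 against 23.8 and 23.8 TPM (0.07 ± 0.10). The transcripts of Kat2a had values of opposite sign, a difference that was not itself tested. NM_020004 had 720 and 645 estimated counts in WT and 372 and 401 in JMJD1C-LKO (-0.82 ± 0.13, adjusted p = 0.046 over 22296 transcripts), whereas NM_001038010 had 750 and 833 against 795 and 908 (0.10 ± 0.11, adjusted p = 0.62).

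Of the 184 member transcripts tested, 4 were lower and 0 higher, where 1.38% and 2.12% of all tested transcripts were (29 and 9 of the members' at an unadjusted p under 0.05). Besides Kat2a NM_020004 these were Setd4 NM_145482, Setd1a NM_178029 and Kmt5a NM_030241. The last had 453 and 500 estimated counts in WT and 216 and 232 in JMJD1C-LKO (-1.09 ± 0.16, adjusted p = 0.040). The other 3 transcripts of Kmt5a had log2 fold changes of -0.65, -0.48 and -0.44 and did not pass. Estimated counts split shared reads between transcripts, which adds an error that is not in these values. With a replicate block 0 of the 4 passed, although 25 of the member transcripts were lower and 5 higher at an unadjusted p under 0.05.

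The bromodomain proteins had 2 of 7 members lower. Brd8, a subunit of the Tip60 acetyltransferase complex, was at 7.80 and 7.57 TPM in WT and 5.93 and 6.04 TPM in JMJD1C-LKO (-0.33 ± 0.09, adjusted p = 0.022; 0.053 with DESeq2), and shares 229 exon bases with Kif20a on the opposite strand. Brd2, a BET protein that binds acetylated histones and the most abundant of the family, was at 40.3 and 39.1 against 35.8 and 39.1 TPM, with groups that touched (-0.06 ± 0.08).

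The Smarc family, mostly subunits of the BAF (SWI/SNF) complexes, had 2 of 10 members lower and a median of -0.23. In 9 of the 10, the pseudogene Smarca5-ps among them, both knockout libraries were below both WT libraries in CPM. That order held in 52.6% of all members and in 33.8% of all tested genes. Smarcb1, a core BAF subunit, was at 26.8 and 25.2 TPM in WT and 20.9 and 19.7 TPM in JMJD1C-LKO (-0.33 ± 0.09, adjusted p = 0.027), and did not pass with DESeq2 (adjusted p = 0.051). Smarca5, the ATPase of the ISWI complexes, was at 15.5 and 15.8 against 12.8 and 12 TPM (-0.30 ± 0.08, adjusted p = 0.025). The pseudogene Smarca5-ps had -0.65 ± 0.23 (adjusted p = 0.060), and since it resembles Smarca5 the split of reads between them is uncertain. Of the 2 BAF ATPases, Smarca4 was at 22.7 and 22.3 against 19.4 and 19.3 TPM (-0.19 ± 0.08, adjusted p = 0.093). The more abundant Smarca2 was at 80.6 and 77.2 against 72.8 and 76.0 TPM, while its summed counts gave 0.01 ± 0.08. Smarca2 has transcripts of unequal length, and TPM does not use the scaling factors of the fit. Its TPM and its fitted counts can therefore differ in direction.

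In the Arid family with Jarid2, 3 of 10 members were lower. Arid5b, a DNA-binding partner of the demethylase Phf2 and the most abundant of the family, was at 15.6 and 14.5 TPM in WT and 11.4 and 12.1 TPM in JMJD1C-LKO (-0.34 ± 0.08, adjusted p = 0.016). Jarid2, an accessory subunit of the Polycomb repressive complex that methylates H3K27, was at 5.58 and 4.94 against 3.94 and 3.93 TPM (-0.39 ± 0.11, adjusted p = 0.023). Arid4b, a subunit of the Sin3 corepressor, was at 14.5 and 14.6 against 11.3 and 12.4 TPM (-0.27 ± 0.08, adjusted p = 0.029). Its paralog Arid4a was at 13.4 and 12.6 against 11.9 and 12.5 TPM (-0.07 ± 0.08). The BAF subunits Arid1a, Arid1b and Arid2 had -0.17, -0.06 and -0.24 and did not pass.

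The Chd family had 1 member called among 10. Chd1l (ALC1), a remodeler activated by poly(ADP-ribose), was higher, from 5.02 and 5.75 to 6.95 and 6.68 TPM (0.37 ± 0.12, adjusted p = 0.044), and lost the call with library totals alone, with DESeq2 and without either WT library or JMJD1C-LKO replicate 1. Chd3, a NuRD ATPase and the most abundant of the family, was at 48.8 and 45.6 against 37.9 and 42.0 TPM (-0.22 ± 0.08, adjusted p = 0.081). The other NuRD ATPase, Chd4, was at 39.4 and 37.4 against 33.9 and 38.9 TPM, and its groups overlapped (-0.06 ± 0.08). The antisense RNA Chd3os had the lowest value among the members that did not pass, -0.68.

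Enzymes of DNA methylation had 1 call in each family. Dnmt3a, which methylates unmodified DNA (chromosome 12, 3806980 to 3914443), was higher in JMJD1C-LKO, from 3.66 and 4.24 to 4.73 and 5.42 TPM (0.40 ± 0.10, adjusted p = 0.014). Dnmt1, which copies methylation after replication, was at 2.49 and 2.49 against 1.98 and 2.67 TPM (-0.08 ± 0.15). Tet2, which oxidises 5-methylcytosine (chromosome 3, 133463677 to 133544390), was lower, from 6.97 and 6.65 to 3.93 and 4.99 TPM (-0.59 ± 0.10, adjusted p = 0.0033). Tet3 was at 4.29 and 3.80 against 4.79 and 4.21 TPM (0.19 ± 0.11), and Tet1 was below 0.03 TPM in each library. Dnmt3b, the other de novo methyltransferase, was at 0.794 and 1.08 against 0.843 and 0.544 TPM (-0.42 ± 0.28) and did not pass. The calls of Dnmt3a and Tet2 went in opposite directions. Dnmt1, Dnmt3b and Tet3 had values opposite in sign to the called gene of their family, and Tet1 had -0.45.

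Partner genes outside the symbol rule gave the following counts, where 13.4% of all tested genes were lower and 14.6% higher in JMJD1C-LKO. The genes named are up to 2 called genes of a list with the smallest p. Lower were 5 of 20 HDAC corepressor partners, among them Rbbp4, a histone chaperone (38.2 and 38.8 against 30.5 and 26.8 TPM, -0.40 ± 0.10, adjusted p = 0.014), and the NuRD subunit Mbd3 (64.3 and 68.7 against 50.8 and 55.5 TPM, -0.29 ± 0.08, adjusted p = 0.020). Of 18 Polycomb genes 4 were lower and 1 was higher. Suz12, a core subunit, was at 7.94 and 8.07 against 6.17 and 5.90 TPM (-0.38 ± 0.09, adjusted p = 0.015), and the catalytic Ezh1 was at 3.88 and 4.77 against 5.57 and 6.46 TPM (0.50 ± 0.12, adjusted p = 0.014). Of 12 further BAF subunits 3 were lower, including Smarcd1 (-0.55 ± 0.14, adjusted p = 0.017) and Pbrm1 (-0.30 ± 0.08, adjusted p = 0.020). Of 10 other histone demethylases 2 were lower, namely the H3K9 demethylase Phf8 (-0.43 ± 0.11, adjusted p = 0.017) and the Y-linked Kdm5d (-0.63 ± 0.17, adjusted p = 0.021).

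The remaining lists held few calls. Of 7 subunits of SET1 and MLL complexes Paxip1 was lower (-0.28 ± 0.09, adjusted p = 0.044), and of 7 H3K9 methyltransferases Prdm2 was higher (0.25 ± 0.08, adjusted p = 0.046). Among 6 readers and partners of DNA methylation Mbd1 was higher (0.52 ± 0.12, adjusted p = 0.011), as was Uhrf1, a partner of Dnmt1 with 0.932 and 0.47 estimated counts in WT and 13 and 16.9 in JMJD1C-LKO. Of 5 other H3K36 and H3K79 methyltransferases and 5 other acetyltransferases, 0 passed in edgeR or DESeq2, with 2 and 1 lower and 0 and 1 higher at an unadjusted p under 0.05. The median log2 fold change of the lists ranged from -0.19 for further BAF subunits to 0.26 for the readers and partners of DNA methylation.

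ATAC-seq was next examined at the starts of these genes. In ATAC-seq a transposase cuts accessible DNA, and the summit is the position of the strongest signal within a called peak. Genes were counted as having a summit if one was found no more than 1000 bp from any RefSeq start of the gene. List lengths were 5220 and 7632 summits for fasted WT, 5027 and 3119 for refed WT, and 1450 and 825 for JMJD1C-LKO. Read depth is unknown from these lists, so no summit does not show closed chromatin. With 2 livers against 2 the smallest p of a two-sided exact permutation test is 0.333, so the counts are given as descriptions.

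In the fasted WT livers 25 and 13 members had a summit. The shares of all 26180 annotated genes with one were 12% and 5.49%, and those of the genes tested in RNA-seq were 20.2% and 9.28%. In both fasted livers 12 members had one (12.6%, against 4.36% of annotated and 7.36% of tested genes). In the refed WT livers 20 and 19 members had a summit, where 9.94% and 6.24% of annotated and 16.7% and 10.5% of tested genes did, and 14 had one in both (14.7%, against 4.78% and 8.07%). In the JMJD1C-LKO livers there were 10 and 2 members, where 4.06% and 0.886% of annotated and 6.66% and 1.31% of tested genes had a summit. Arid4b was the single member with one in both (1.05%, against 0.397% and 0.564%). In 62 members no summit was found in any of the 6 livers, and the share of all genes with none was not counted.

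**Figure D3:**
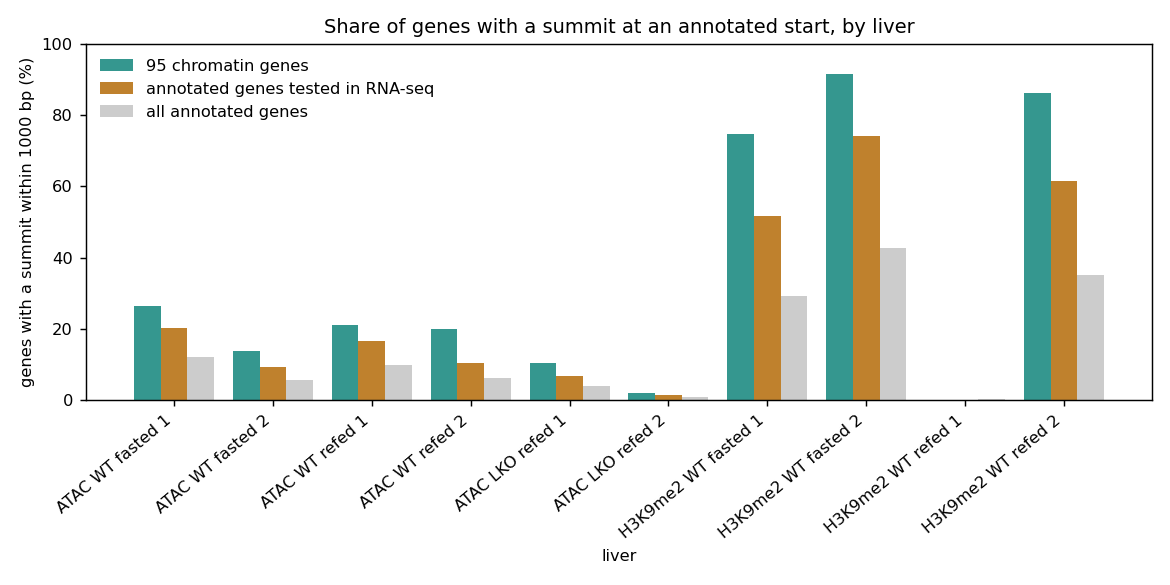
Share of genes with a summit within 1000 bp of an annotated start (y axis, %) in each liver (x axis), for the 95 chromatin genes, for annotated genes tested in RNA-seq and for all annotated genes. The chromatin genes stand above both other bars in every liver except H3K9me2 WT refed replicate 1, where 0 members had a summit.

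The fasted and refed WT lists shared 9 members, which is 75% of the fasted and 64.3% of the refed list, where over all annotated genes the shares were 62.1% and 56.6%. These were Arid4a, Arid4b, Brd9, Hdac2, Hdac4, Kdm1b, Kmt5c, Setd3 and Smarca5. Kat5 (the Tip60 acetyltransferase), Kmt2a and Smarcal1, an annealing helicase, had a summit in both fasted livers and in at most 1 refed liver. Chd1, which binds methylated H3K4, Chd7, Jarid2, the acetyltransferase Kat6b and Kmt5a had one in both refed livers and in at most 1 fasted liver. Of these 5, Kmt5a and Chd7 had no summit in either fasted liver. Smarcal1 likewise had none in either refed liver, so at these 3 members both livers of one state differed from both livers of the other. The share of all genes that differed in this way was not counted, and no response to feeding was tested. Over all annotated genes with a summit in both fasted livers, 37.9% lacked one in at least 1 refed liver.

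Positions were close between livers at several genes. At Hdac4, a class IIa enzyme, the summits of the 4 WT livers lay at -115, -116, -114 and -113 bp. At Brd9, a subunit of the non-canonical BAF complex, they lay at 102, 104, 103 and 94 bp, and at Kmt5c, which adds further methyl groups to H4K20, at -187, -220, -237 and -208 bp. Setd3 had the best ranked member summit of refed replicate 1 (rank 106 of 5027, score 31.4, the -log10 of the q-value), at -275 bp. In refed replicate 2 the best was Arid4b (rank 171 of 3119, score 21.7). Kdm1b, a demethylase of H3K4, had summits at -174, -97, -198 and -43 bp, and Arid4a at -440, -168, -179 and -166 bp. Those of Kat6b lay within the gene, at 962 bp in a fasted liver and at 941 and 851 bp in the refed livers.

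The 11 members with a summit in at least 1 JMJD1C-LKO liver also had one in a refed WT liver. So did 83.8% of all 1190 annotated genes with a summit in a knockout liver. The 11 members were Arid4b, Brd2, Brd9, Chd7, Hdac2, Hdac4, Kdm1b, Kmt2a, Kmt5c, Setd3 and Smarca5. Another 14 members had a summit in a refed WT liver and in neither knockout liver, among them Kmt5a, Jarid2, Setd1a and Kdm5c, which were lower in RNA-seq. Of the 11 members above, Arid4b, Hdac2 and Smarca5 were lower in RNA-seq too, and Kmt2a was higher. A link between the absence of a knockout summit and RNA was not tested. Of all 2983 annotated genes with a summit in a refed WT liver, 66.6% had none in either knockout liver. The knockout lists were shorter for the whole genome, so the lower count is shared by all genes. When only the 825 strongest summits of each liver were used, 8 and 8 members had a summit in the refed WT and 4 and 2 in the JMJD1C-LKO livers, against 2.18%, 2.19%, 1.94% and 0.886% of all genes. At that length 6 members had one in both refed WT livers and 0 in both knockout livers, against 1.15% and 0.237% of all annotated genes.

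By family, the refed WT livers both had a summit at 3 of 10 Arid and Jarid2 genes, at 2 of 11 Hdac, 2 of 10 Chd and 2 of 8 Kmt genes, and at 1 each of the Smarc, Brd, Kat, Kdm and Setd genes. Sirt, Dnmt and Tet genes had none in both livers, and Sirt2 alone of these 14 genes had one in a single liver. Of the 33 members with a summit in any liver, 10 had the start of another gene within 1000 bp of it, such as Ggps1 beside Arid4b, Ccnk beside Setd3, Tpmt beside Kdm1b and Trip13 beside Brd9, and the summit cannot be given to one gene of such a pair.

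**Figure D4:**
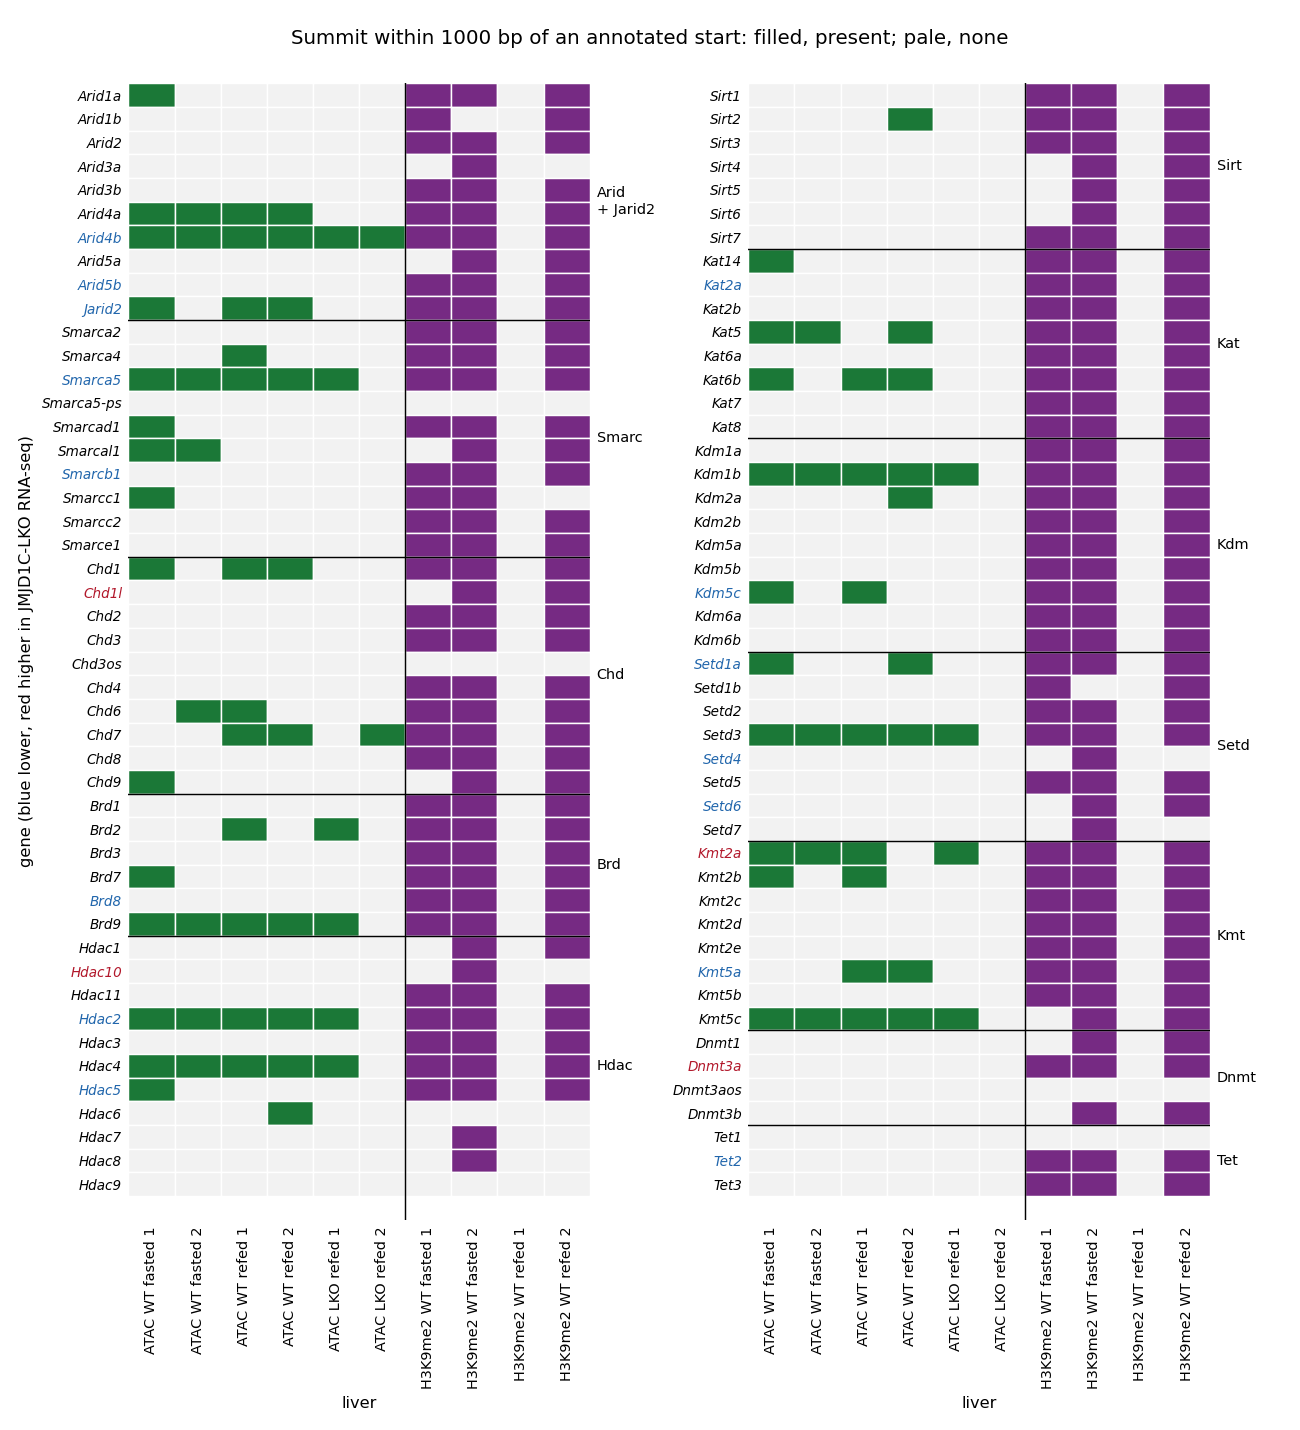
Presence of a summit within 1000 bp of an annotated start for 94 of the 95 chromatin genes (rows, by family, blue names lower and red names higher in JMJD1C-LKO RNA-seq) in 6 ATAC-seq livers (green) and 4 H3K9me2 livers (purple) as columns. H3K9me2 fills most rows in 3 livers and none in refed replicate 1, while 61 rows have no ATAC-seq summit.

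H3K9me2 was measured in WT liver only. Refed replicate 1 stood apart, with 1297 summits against 7690 and 13456 in the fasted livers and 9929 in refed replicate 2, and 61 genes with a summit at the start in the whole genome. In the fasted livers 71 and 87 members had a summit at the start, where 29.3% and 42.7% of annotated and 51.6% and 74.1% of tested genes did, and 69 had one in both (72.6%, against 29.1% of all annotated genes and 51.3% of those tested in RNA-seq). In refed replicate 2, 82 members had one (86.3%, against 35.1% and 61.6%), and in refed replicate 1 there were 0 (against 0.233% and 0.123%). The count for both refed livers was therefore 0 with replicate 1 (0.042% of annotated and 0.0723% of tested genes) and 82 without it. Each of the 82 members also had a summit in at least 1 fasted liver, as did 93.7% of all members and 42.9% of annotated genes. The overlap between refed and fasted livers over all genes was not counted. The 2 refed livers differed by 82 members, and refed replicate 2 lay between the fasted livers.

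The families were unevenly covered. Both fasted livers had a summit at all 9 Kdm genes, all 8 Kat genes and all 7 Brd genes. They had one at 8 of 10 Smarc genes, 7 of 10 Arid and Jarid2 genes, 7 of 10 Chd genes, 7 of 8 Kmt genes and 2 of 3 Tet genes. Fewer had one among the Hdac genes (5 of 11, Hdac2, Hdac3, Hdac4, Hdac5 and Hdac11), the Sirt genes (4 of 7, Sirt1, Sirt2, Sirt3 and Sirt7), the Setd genes (4 of 8) and the Dnmt genes (1 of 4, Dnmt3a). Members without a summit in any H3K9me2 liver were Hdac6, Hdac9, Tet1, Chd3os, Dnmt3aos and Smarca5-ps. Setd4, with the lowest log2 fold change, had a summit in fasted replicate 2 alone, at -259 bp.

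The strongest H3K9me2 summits of the members were at Brd2 in all 3 livers, ranking 21 of 7690 and 42 of 13456 in the fasted livers and 156 of 9929 in refed replicate 2. In both fasted livers this summit lay at the same base (chromosome 17, 34120755), -855 bp from one of the starts of Brd2. That start is an internal one. The base lies within the annotated span of the gene (34112019 to 34122607, minus strand), downstream of its first start. Kmt2e, an H3K4me3-binding protein, ranked 99, 78 and 416. At Kmt2a the nearest summits lay at 195, 223 and 258 bp.

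The marks differed in where their summits fell. Of the ATAC-seq summits at members, 52%, 69.2%, 65% and 78.9% lay in the 250 bp before the start in the 4 WT livers (25, 13, 20 and 19 summits), compared with 40.7%, 50.1%, 50.4% and 59.7% over all genes. Of the H3K9me2 summits, 57.1%, 60.8% and 59.8% lay over 100 and up to 500 bp downstream in the 3 livers with summits (91, 120 and 107 summits), compared with 65.4%, 65% and 64% over all genes. In the 250 bp before the start H3K9me2 had 3.30%, 5% and 3.74% of its member summits. A gene can therefore hold both, as Hdac2 did with ATAC-seq summits at -114 and -207 bp and H3K9me2 summits at 82 and 180 bp in the fasted livers.

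**Figure D5:**
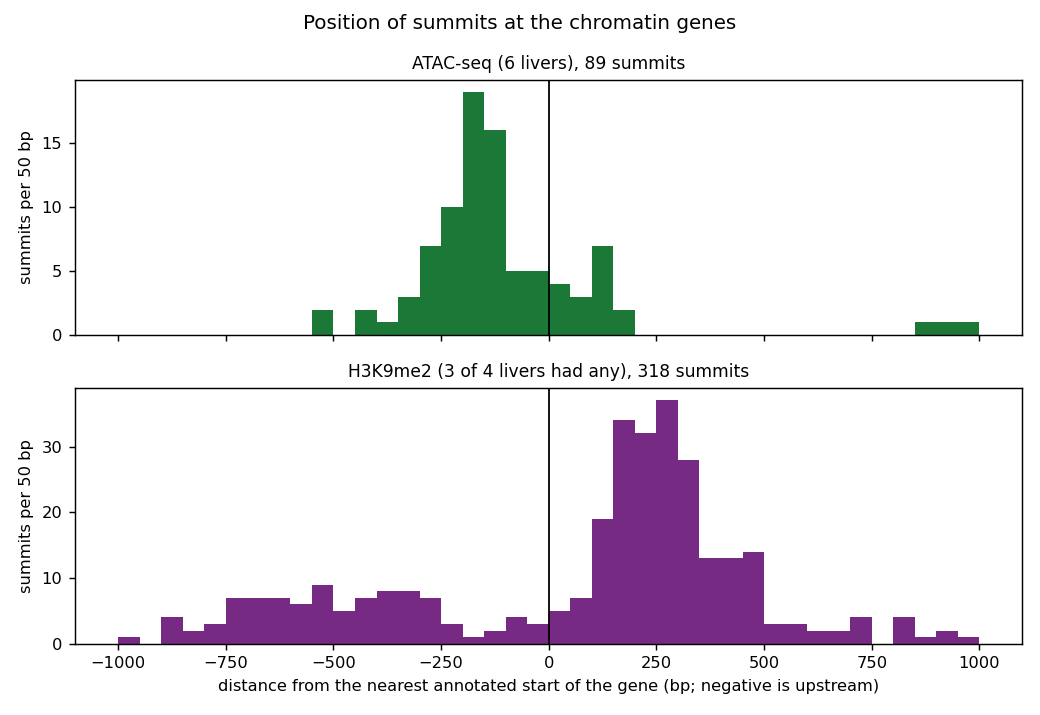
Number of summits per 50 bp (y axis) by distance from the nearest annotated start of the gene (x axis, bp, negative upstream) for 89 ATAC-seq summits of 6 livers (top) and 318 H3K9me2 summits (bottom). ATAC-seq summits gather upstream of the start, and H3K9me2 summits gather downstream of it with a broad second group upstream and few in between.

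All 26 members with an ATAC-seq summit in a fasted liver had an H3K9me2 summit in a fasted liver too, within the 89 members that had one, and so did 95.7% of all 3442 genes with an ATAC-seq summit in a fasted liver. In both livers, 10 of the 12 members with ATAC-seq summits were among the 69 with H3K9me2 summits (83.3% and 14.5% of the lists), the others being Kmt5c and Smarcal1. Over all annotated genes the shares were 69.1% and 10.3%. The ATAC-seq and ChIP-seq mice are not stated to be the same, so the pairing is between groups and not within a liver.

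RNA-seq calls were set beside the summits. Of the 14 members with an ATAC-seq summit in both refed WT livers, 5 were lower in JMJD1C-LKO (Arid4b, Hdac2, Jarid2, Kmt5a and Smarca5) and 0 higher, and among all 1116 tested genes with such summits 15.7% were lower and 9.68% higher. Of the 12 members with one in both fasted livers, Arid4b, Hdac2 and Smarca5 were lower and Kmt2a higher, where 17.6% and 9.33% of 1018 tested genes were. The 14 members of the refed list had a median log2 fold change of -0.08, and the 81 other members -0.10. Of the 69 members with H3K9me2 in both fasted livers, 14 were lower and 2 higher, where 18.5% and 10.6% of 7089 tested genes with it were. Of the 26 others, Setd4 and Setd6 were lower and Chd1l and Hdac10 higher, where 8.11% and 18.9% of 6736 tested genes without it were. The median level of the members was 10.5 TPM with and 3.65 TPM without these H3K9me2 summits, and over all tested genes it was 15.2 and 1.65 TPM. Genes with an H3K9me2 summit at the start were thus the more expressed ones among members as among all genes.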

How the data were processed

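Liver RNA-seq, ATAC-seq and H3K9me2 ChIP-seq were analysed from the tables the authors deposited, and each group had 2 samples. The authors deposited RNA-seq as estimated counts per RefSeq transcript, not scaled; the study names Partek for its RNA-seq analysis and DESeq2 for its comparison, and the submitters' processing notes list HISAT2 without its role. The authors called ATAC-seq (BWA) and ChIP-seq (Bowtie2, against input) peaks with MACS2 2.1.1 in each liver and deposited summits on mm10 with the −log10 of the q-value, without widths or depth. A deposited table of the authors' own comparison was not used. Input samples had no file of their own here.

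Counts were summed per gene, rounded and tested with edgeR 4.0.16 (filterByExpr, TMM, quasi-likelihood test, Benjamini-Hochberg adjustment over all 14151 genes, no block), in which TMM factors lay between 0.961 and 1.018 and the common dispersion was 0.0083. SE is the absolute log2 fold change over the square root of F. DESeq2 1.42.0, the study's own test, was an alternative. On simulated counts for this comparison (14133 genes) 72% of 1.5-fold and 100% of 2-fold changes were recovered, and 12 unchanged genes were called. Every simulated gene had the same dispersion, and changes under 1.5-fold were not simulated. TPM used RefSeq transcript lengths. Of 194 member transcripts 191 were found by accession in RefSeq GRCm38.p6. Fasted and refed groups were read from the titles, since the labels give every sample the same refeeding text.

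The same replicate numbers occur in both RNA-seq groups, but the differences between replicates had a correlation of 0 between the groups, so the numbers were not taken as pairs. Counts of replicates differed by more than sampling noise. The genes named were the targeted gene, up to 4 called members with the smallest p and the most abundant member of each family, members whose transcripts differ in sign with at least 1 past the threshold, and members with a summit in both livers of an ATAC-seq group (the longer H3K9me2 list is given by family). Further values for single members were chosen after they were seen. Members and lists were chosen with earlier results of these data known, and some families are ones the study itself named from these samples. The values of 1 called member are not reported here, although it is included in the counts and medians.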

Additional observations from a re-analysis of the deposited data

How the results depend on the processing

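Among the RNA-seq results, size factors of DESeq2 within edgeR left 16 members lower and 4 higher, where 13.2% and 14.5% of all tested genes were. No filter on low counts left 16 and 3, where 12.2% and 12.8% of genes were. Library totals alone gave 20 lower and 1 higher, and DESeq2 gave 12 and 1. With a replicate block there were 15 and 5, where 14.1% and 15.6% of genes were, and of member transcripts 0 were lower in place of 4. No sample pairing was found, and Kat2a was the single called gene to lose its call with the block. Leaving out each library in turn gave 4 to 23 members lower and 0 to 6 higher. In those fits the lone sample of a group is assumed to vary like the other group. The share of all genes called moved the same way, and the cause was not tested.

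For summits in both livers of a group, a score of at least 5 left 10 members in fasted and 8 in refed WT ATAC-seq. The shares of all annotated genes were 2.36% and 3.46%. The order of these groups, 12 and 14 members without the score limit, was thus reversed. Equal numbers of the strongest summits (825 for ATAC-seq, 1297 for H3K9me2) left 2 in fasted WT, 6 in refed WT and 0 in JMJD1C-LKO ATAC-seq, and 11 in fasted H3K9me2. The shares of all annotated genes at these lengths were 0.932%, 1.15%, 0.237% and 3.4%. Counting a summit in either liver gave 26, 25 and 11 for ATAC-seq and 82 for refed H3K9me2, against 13.1%, 11.4%, 4.55% and 35.3% of all annotated genes. Single livers gave 13 to 25, 19 to 20 and 2 to 10 for ATAC-seq, and 71 to 87 and 0 to 82 for H3K9me2. Windows of 500 or 2500 bp kept every count within 1.5 times. Smaller sets follow from the shorter lists by construction, and other causes were not tested. Without read counts for the peaks, no difference between groups of livers could be tested.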
